A study of Eurytemora affinis with 18 samples.

Results

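Females and males of the estuarine copepod *Eurytemora affinis* were compared after both had been exposed to the same nominal 50 µg/L of tebufenozide (TEB). TEB is an insect growth regulator that binds and activates the ecdysone receptor, the receptor of the arthropod moulting hormone. The comparison used 6 of the 18 RNA-seq libraries of the study, the 3 of females and the 3 of males at 50 µg/L, chosen by concentration and sex as labelled. Each library was made from a pool of 30 entire adults of one sex, collected in the wild and exposed for 72 h with acetone as the solvent, and the females carried no eggs. The other 12 libraries were 3 of each sex in solvent controls and 3 of each sex at a nominal 0.5 µg/L of TEB. They served as further libraries in which the same genes could be read, and in tests of whether the sex difference changed between concentrations. All 6 libraries at 50 µg/L came from the same flow cell, the one with longer reads, whereas all but 1 of the other libraries came from another. The exception, by its column label, was female replicate 3 at 0.5 µg/L. Flow cell and concentration cannot be told apart in males, and in females only that 1 library separates them, which was not tested.

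An adult female copepod fills much of its body with an ovary in which germ cells divide, enter meiosis and store yolk, histones, ribosomes and masked messenger RNA for the embryo. The male has a testis instead, and the rest of the animal of either sex is mostly muscle, nerve, gut and cuticle. RNA from an entire animal therefore mixes the transcripts of gonad and body. In such bulk samples a lower share of cells of one type and less RNA per cell cannot be told apart, and a gene can only be read as its share of the messenger RNA of the animal. Values are given as CPM, the usual unit of counts relative to library size, with sizes scaled with the trimmed mean of M-values (TMM). CPM are not divided by gene length, so levels of different genes are not compared.

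The male libraries held 5019069, 3882407 and 8181508 counts on genes and the female libraries 8651161, 9829482 and 7983412. Replicates of one sex were close, with correlations of log2 CPM across genes of 0.957 to 0.964 between male libraries and of 0.972 to 0.981 between female libraries, against 0.491 to 0.514 between the sexes (genes are not independent replicates). Male libraries were more concentrated, since their 10 most abundant genes took 6.62 to 7.31% of counts, against 3.36 to 3.67% in females. The replicates came from separate pools, and p-values measure the spread between these pools.

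Of 16019 genes tested, 4761 were called higher in females (29.7% of genes tested) and 6885 higher in males (43.0%), by the quasi-likelihood test of edgeR at an adjusted p of 0.05 or less and an absolute log2 fold change of 1 or more. Together this was 72.7% of the genes, and only 4373 were not called. Every library of one sex lay above every library of the other for 87.2% of the genes tested. The split between the sexes depended on scaling, as 40.9% of the called genes were higher in females with TMM and 30.7% with upper quartile scaling. The median log2 fold change (females over males) of all genes tested was -0.32, and other scalings moved this median by between -0.45 and 0.28. With the stricter filter of at least 10 CPM in 3 libraries, which tests 10848 genes, the median was 0.16.

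The 2 sets had different shapes, as the plot of mean CPM shows. Genes called higher in females had a median log2 fold change of 1.83 and those called higher in males a median of -3.06. A log2 fold change of 5 or more was reached by 269 genes in females and 786 in males, and one of 8 or more by 123 and 375 genes. Genes called higher in females took 49.5 to 49.9% of the counts of each female library and 9.43 to 10.1% of each male library. Genes called higher in males took 59.7 to 60.4% of the counts of each male library and 12.04 to 12.7% of each female library. These shares follow from how the genes were called and are given as a description.

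**Figure D1:**
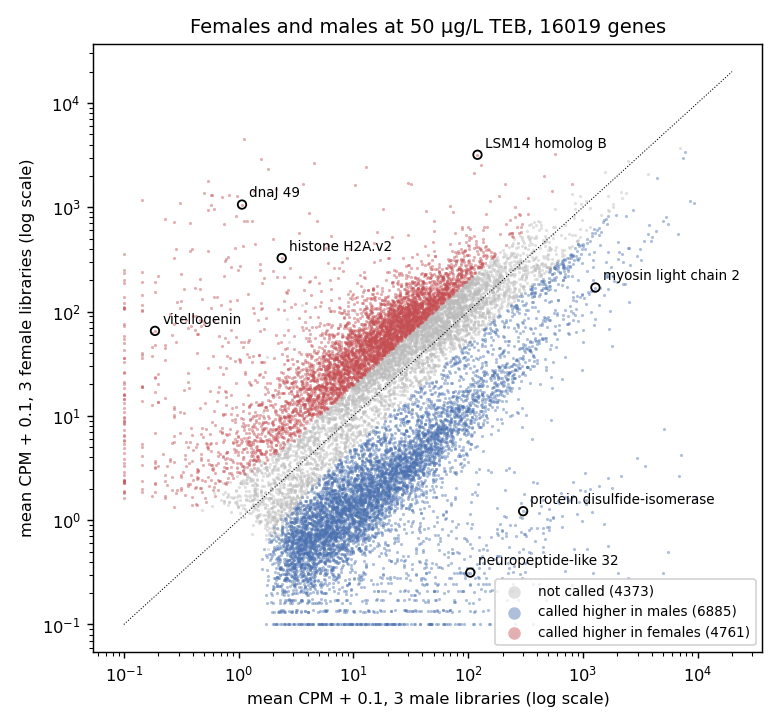
Mean CPM of each of 16019 genes in the 3 male (x axis) and 3 female libraries (y axis) at 50 µg/L TEB, with 0.1 added and both axes on a log scale, coloured by call. The 4761 genes called higher in females lie mostly in a band near the diagonal with a thin scatter of genes almost absent from males, while the 6885 called higher in males lie further from the diagonal.

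Some genes were read in one sex alone. At least 10 counts in each female library and none in any male library were found for 63 genes, and the mirror image for 133 genes. Most had no describing name. The 3 that had one were picked after their values were seen. High choriolytic enzyme 1-like (LOC111715359) had 13.6, 12.7 and 20.7 CPM in the 3 female libraries, and zinc metalloproteinase nas-14-like (LOC111714754) had 6.43, 6.90 and 8.24 CPM. Both names belong to the astacin family of metalloproteases, which includes the enzymes that digest egg envelopes at hatching in fish. Set against a floor of 3 counts over the 3 male libraries, they were at least 79.9-fold and at least 37.1-fold higher in females. On the male side, the probable G-protein coupled receptor B0563.6 (LOC111706577) had 9.75, 9.56 and 7.81 CPM and was at least 85.2-fold higher in males.

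The names of genes come from the lists of the study, which cover 1434 of the 23728 genes counted, nearly all of them because they changed with TEB. Most were listed for males at 50 µg/L, the same male libraries used here. The lists below were thus drawn from genes chosen on these samples and are not independent evidence of a direction. Of the 930 tested genes with a describing name, 565 (60.8%) were higher in females and 344 (37.0%) higher in males, whereas of the 14610 genes that the study did not list, 27.0% and 43.3% were. Most members of a list being higher in females thus matches the named genes in general. Counts of list members below stand beside 60.8% of named genes higher in females and 37.0% higher in males.

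Yolk and its uptake separated the sexes widely. Vitellogenin-like (LOC111704362), the precursor of yolk protein, had 43.9, 65.5 and 86.3 CPM in the 3 female libraries. In males it had no count in 2 libraries and 0.26 CPM in the third, so that the groups did not overlap. With 2 counts in all male libraries, the ratio was 504 with an exact 95% interval of 139 to 4168 (counting error alone). The log2 fold change was 8.82 ± 0.50 (SE, n = 3 per sex, edgeR quasi-likelihood, adjusted p = 2.8e-09).

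Receptors of the low-density lipoprotein receptor family, which in insects includes the receptor that brings yolk into the oocyte, were higher in females in 3 of 4 cases. Very low-density lipoprotein receptor-like (LOC111702980) had 866, 958 and 832 CPM in females and 3.17, 5.79 and 2.99 in males, a log2 fold change of 7.88 ± 0.21. Low-density lipoprotein receptor-related protein 2 (LOC111702101) had a log2 fold change of 8.17 and the prolow-density receptor-related protein (LOC111712641) of 5.42. A second gene named very low-density lipoprotein receptor-like (LOC111700908) went the other way, with 36.7, 42.6 and 45.7 CPM in males and 4.61, 4.27 and 2.48 in females, a log2 fold change of -3.45. The same name therefore stood for genes of opposite sex bias. This list was put together after values had been seen.

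Regulators of germ line RNA were higher in females for 5 of the 7 members, with a median log2 fold change of 3.30. Bicaudal C homolog 1-A-like (LOC111698166), whose fly counterpart is an RNA-binding protein of oogenesis, had 523, 638 and 584 CPM in females and 18.6, 13.9 and 15.2 in males (log2 fold change 5.19 ± 0.16, adjusted p = 2.7e-12). The helicase vasa, a marker of germ cells across animals, was present as 2 genes. LOC111702462 had 168 to 186 CPM in females and 8.98 to 14.2 in males (3.89), and LOC111703234 had 346 to 378 in females and 24.0 to 43.5 in males (3.30). Both were also read in every male library. Maternal protein exuperantia-1-like (LOC111705270), which in the fly places messenger RNA within the oocyte, had 140, 128 and 138 CPM in females and 11.6, 4.35 and 11.98 in males (3.80 ± 0.25). Tudor domain-containing protein 5-like, known from the mouse germ line, followed with 2.79. Bicaudal D-related protein homolog (LOC111700578) was the exception, at 11.0 to 12.5 CPM in males and 0.43 to 1.36 in females (-3.50). Gametocyte-specific factor 1 homolog was not called in either direction, with a log2 fold change of 0.81 (adjusted p = 0.011 by edgeR), but it passed the fold threshold with DESeq2 (1.04), with library size only (1.10), without male replicate 1 (1.28) and after recentring on the median (1.13).

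Proteins that store and handle messenger RNA, another list made after values had been seen, were all 8 higher in females, with a median log2 fold change of 4.49. LSM14 homolog B-like (LOC111708771), a component of granules that hold silent messenger RNA, was among the 5 most abundant genes called higher in females with a log2 fold change of 2 or more. It had 3283, 3073 and 3216 CPM in females and 134, 116 and 113 in males (4.72 ± 0.14). The eukaryotic initiation factor 4E transporter (LOC111706520), which binds the cap-binding protein and keeps it from starting translation, had 2221, 2171 and 2056 CPM against 112, 114.1 and 111. Cytoplasmic polyadenylation element-binding protein 1, which in frog oocytes holds messenger RNA silent until maturation, had 227 to 267 CPM in females and 0.87 to 2.49 in males (6.90). Cold shock domain-containing protein CG9705-like reached 7.32 and poly(A) polymerase beta-like 5.75. Polyadenylate-binding protein 1-A-like, which coats the poly(A) tail, had a log2 fold change of 1.45, and the lowest member reached 1.28.

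**Figure D2:**
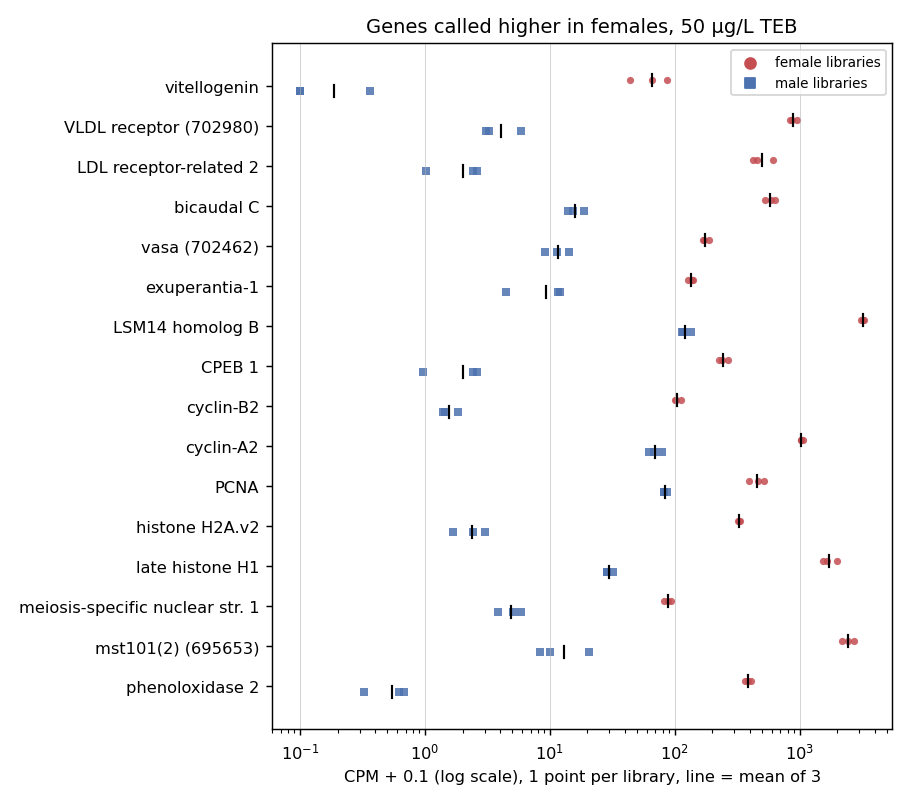
CPM (log scale, 0.1 added) of 16 genes called higher in females at 50 µg/L TEB, 1 point per library (3 female circles, 3 male squares) with the mean as a line. No female library overlaps a male library for any gene shown, and vitellogenin lies between 43.9 and 86.3 CPM in females against at most 0.26 in males.

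Genes of DNA replication were higher in females for all 16 members, with log2 fold changes within a narrow range of 2.08 to 3.63 and a median of 2.79. Origin recognition complex subunit 4-like (LOC111698434), which marks origins, had 173, 145 and 167 CPM in females and 15.2, 16.2 and 8.98 in males (3.63). Cell division control protein 45, part of the replicative helicase, reached 3.59 and the licensing factor mcm7-like 2.34. The catalytic subunit of DNA polymerase alpha reached 3.13, and the sliding clamp PCNA (LOC111703885) had 518, 390 and 467 CPM in females and 82.3, 86.3 and 81.9 in males (2.46). Both subunits of ribonucleotide reductase, which makes the building blocks of DNA, were higher in females by 2.87 and 2.71. Summed over the list, males had 616 to 745 CPM and females 4224 to 4416.

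Cyclins and mitotic kinases spread further. Of 13 members, 12 were higher in females, with a median of 3.45. B-type cyclins drive entry into mitosis and meiotic maturation, and 2 of the 3 had the highest values of the list. Cyclin-B2-like (LOC111706711) had 102, 112 and 100 CPM in females and 1.36, 1.74 and 1.30 in males (6.19 ± 0.21), and cyclin-B-like (LOC111702910) had a log2 fold change of 5.78. Cyclin-B3-like (LOC111716562) had 3.36, below the median of the list. Cyclin-A2-like (LOC111714223), of S phase and early mitosis, had 1065, 1017 and 1015 CPM against 78.4, 61.7 and 67.7 (3.90). The kinases PLK1 (2 genes, 3.77 and 3.45), PLK2 (4.21), PLK4 (2.27) and aurora (3.55) were all higher in females. Inner centromere protein-like (LOC111709449), named after the partner of aurora kinase on chromosomes, was higher in males, with 74.8, 61.7 and 78.5 CPM against 3.97, 7.17 and 5.31 (-3.70). It was the only member of the list called in that direction.

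The 4 members of the meiosis list were higher in females. Meiosis-specific nuclear structural protein 1-like (LOC111710204) had 92.9, 82.4 and 88.5 CPM in females and 4.99, 3.77 and 5.73 in males (4.14), and meiotic nuclear division protein 1 homolog had a log2 fold change of 2.96. In the list of DNA repair, added later, all 8 members were higher in females with a median of 2.36, from XP-C homologue at 1.90 to BRCA1-associated RING domain protein 1-like at 2.77.

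Chromatin genes joined them. All 4 histone genes were higher in females, by log2 fold changes from 1.53 to 7.17. Histone H2A.v2-like (LOC111708142), a variant of the core histone H2A, had 329, 320 and 330 CPM in females and 1.59, 2.90 and 2.34 in males. Late histone H1-like (LOC111703046) had 1999.8, 1533 and 1649 CPM against 28.3, 28.4 and 32.2 (5.86), whereas histone H1-delta-like differed by only 1.53, so that 2 linker histones of different name differed in the size of their bias. The libraries were made from messenger RNA, and histone messages without a poly(A) tail may be read in part only. Both genes named DNA (cytosine-5)-methyltransferase 1-like, the enzyme that copies methylation onto new DNA, were higher in females (3.13 and 2.69). Of 9 genes of histone modification, a list added later, 8 were higher in females, with SUV39H1-A-like at 3.50 and polycomb protein EED-like at 3.35. The H3 lysine-79 methyltransferase (LOC111712022) was higher in males (-3.97). Genes of ribosome biogenesis were higher in females in 5 of 5 cases, led by probable U3 small nucleolar RNA-associated protein 11 (3.74) and nucleolar protein 16-like (3.22).

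**Figure D3:**
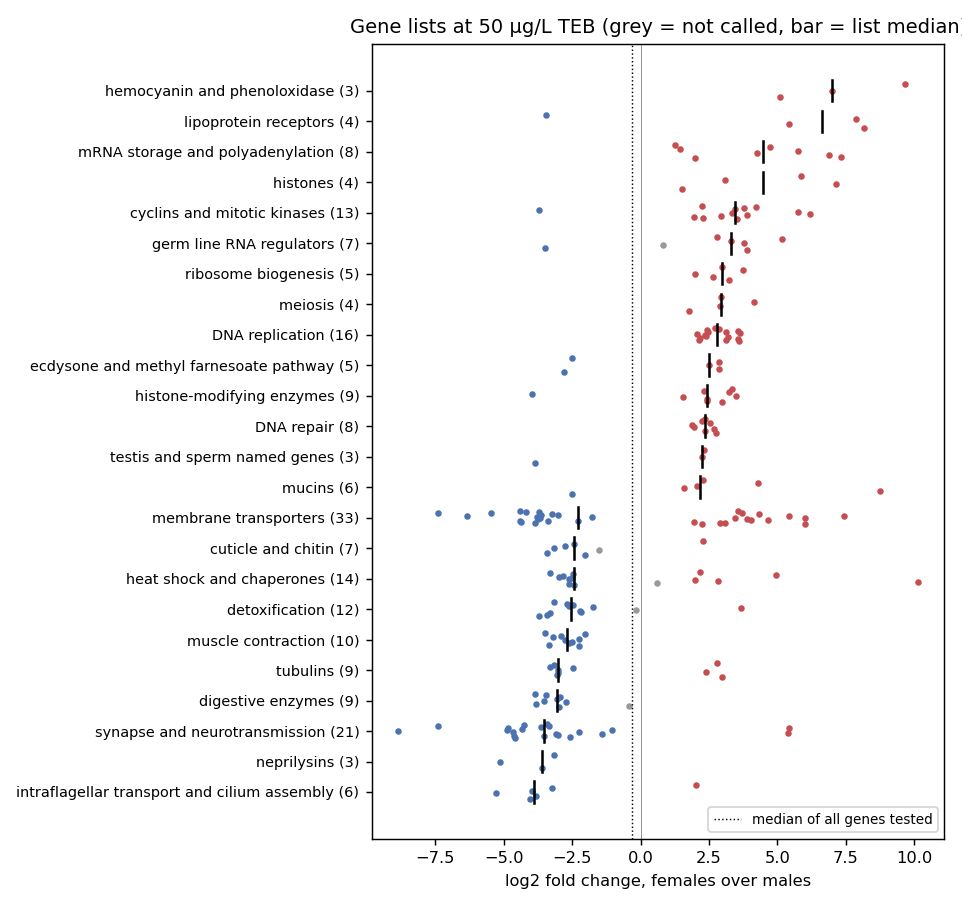
Log2 fold change (females over males, x axis) of each tested member of the lists with at least 3 members, 1 point per gene, red or blue where called higher in females or males and grey where not called. The bar is the median of the list and the dotted line the median of all genes tested (-0.32). Lists of germ line, cell cycle and chromatin lie to the right of it, and lists of cilium, nerve, muscle, gut and tubulin to the left.

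The named genes with the largest bias to females were mostly not members of the reproductive lists. The rule of largest fold change at 50 CPM or more gave prisilkin-39-like (LOC111699757, 11.90), zyxin-like (LOC111699240, 10.79), flocculation protein FLO11-like (10.44), chaperone protein dnaJ 49-like (LOC111706182, 10.16), the E3 ubiquitin ligase SINA-like 5 (9.73), phenoloxidase 2-like (LOC111716773, 9.69), membrane-associated phospholipase B1 (9.45) and leucine-rich repeat extensin-like protein 3 (LOC111707968, 9.25). Several of these names describe repeats of amino acids more than a function. Prisilkin-39-like had 1354, 1295 and 1291 CPM in females and 0, 1.45 and 0 in males. For zyxin-like, 1 count in all male libraries gave a ratio of 2203 with an exact 95% interval of 395 to 87031 (counting error alone). DnaJ 49-like had 1207, 956 and 1024 CPM in females and 1.81, 0.58 and 0.52 in males. The most abundant gene called higher in females with a log2 fold change of 2 or more, LOC111697165, was uncharacterized, with 4873, 4262 and 4305 CPM against 2.27, 0 and 0.78.

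Phenoloxidase, which hardens and darkens cuticle and egg coats in arthropods, and hemocyanin, the copper protein that carries oxygen, belong to one protein family. All 3 named members were higher in females, but this list, too, was made after values had been seen. Phenoloxidase 2-like had 387, 403 and 364 CPM in females and 0.23, 0.58 and 0.52 in males. The 2 genes named hemocyanin F chain-like had log2 fold changes of 7.01 (LOC111698228) and 5.11 (LOC111713766). Of 6 mucin-like genes 5 were higher in females. Mucin-17-like (LOC111700935) had 318, 370 and 322 CPM against 0.23, 0.87 and 1.04 (8.75), and mucin-5AC-like split, with LOC111699105 at 4.28 and LOC111697205 at -2.51.

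Names that refer to sperm did not follow one direction. Axoneme-associated protein mst101(2)-like, named after a protein of the sperm tail in flies, was given to 2 genes of opposite bias. LOC111695653 had 2740, 2414 and 2193 CPM in females and 8.16, 20.3 and 9.90 in males (7.64 ± 0.31), while LOC111704844 was scarce, with 2.72, 3.19 and 3.39 CPM in males and 0.21, 0 and 0.23 in females (-4.33). Zonadhesin-like, named after a mammalian sperm protein that binds the egg coat, was likewise split between LOC111706122 (13.8, 27.2 and 28.8 CPM in males, 2.36, 1.27 and 1.13 in females, -3.87) and LOC111716440 (2.32). Gametogenetin-binding protein 2-like was higher in females (2.23).

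Genes of intraflagellar transport, the traffic that builds cilia and flagella and that also serves the cilia of sensory neurons, were higher in males. Of the 6 members 5 were called in that direction. IFT20 (LOC111701900) had 20.4, 28.7 and 19.3 CPM in males and 0.32, 1.27 and 0 in females (-5.28 ± 0.62, adjusted p = 1.1e-05). The heavy chain of cytoplasmic dynein 2 (LOC111706588), the motor of the return traffic, had 33.5, 20.6 and 43.0 against 1.39, 2.36 and 2.15 (-4.04), and IFT56, IFT172 and IFT88 had log2 fold changes of -3.96, -3.82 and -3.23. The tubulin polyglutamylase TTLL4-like was higher in females (2.02). In the list of neprilysins, membrane peptidases that cleave peptide hormones, 3 of 3 members were higher in males. Neprilysin-1-like (LOC111695973) had 16.5, 19.7 and 19.9 CPM against 0.86, 0.45 and 0.23 (-5.14). The list includes a gene named endothelin-converting enzyme homolog (LOC111703898, -3.59).

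Genes of synapse and neurotransmission were mostly higher in males. Of 21 members 19 were higher in males (37.0% of all named genes tested were), with a median of -3.53. Neuropeptide-like protein 32 (LOC111714314) had 129, 121 and 64.2 CPM in males and 0.64, 0 and 0 in females (-8.87 ± 0.69). The serotonin transporter (LOC111698482), which clears serotonin from the synapse, had 41.9, 53.3 and 34.8 CPM against 0, 0.64 and 0 (-7.41). The voltage-gated sodium channel para (LOC111713140), which carries the action potential, had 78.4, 61.1 and 88.8 against 3.64, 4.90 and 2.60 (-4.34). Acetylcholinesterase, the enzyme that ends cholinergic signals, had a log2 fold change of -4.61, and acetylcholine receptor subunits ranged from -2.58 to -4.60. The smallest calls were those of the octopamine receptor beta-2R-like (-1.05) and of an NMDA receptor subunit (-1.41), and the first was lost under most alternative settings, the second with glmTreat and without male replicate 3 (-0.97). These 2 genes were in the opposite direction elsewhere, with log2 fold changes of 0.42 and 0.21 at 0.5 µg/L and 2.28 and 1.13 in controls. In controls, synaptotagmin-1-like (LOC111703377, -3.42 at 50 µg/L) had 0.20 and innexin inx2-like (LOC111702621) had 0.01. In all, 17 of the 21 members had the same sign in controls, and 18 of the 20 tested did at 0.5 µg/L.

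Each of the 2 nerve genes called higher in females shared its name with a gene called higher in males. Sodium-dependent dopamine transporter-like LOC111697080 had 164, 172 and 144 CPM in females and 1.59, 4.92 and 4.43 in males (5.43), whereas LOC111705348 of the same name had 1.71, 1.18 and 1.81 in females and 16.5, 16.2 and 25.9 in males (-3.65). Innexin inx2-like, a gap junction protein, had 5.39 for LOC111695314 and -2.24 for LOC111702621. Chaoptin-like, named after a surface protein of fly photoreceptors, was higher in females (4.55). Membrane transporters, a list added later that shares genes with the nerve list, split into 15 higher in females and 18 higher in males. A glycine transporter (LOC111697904) reached 7.46 in females, and the vesicular glutamate transporter 1-like, which loads synaptic vesicles, had 95.2, 79.1 and 97.4 CPM in males against 4.18, 4.81 and 5.87 (-4.19).

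**Figure D4:**
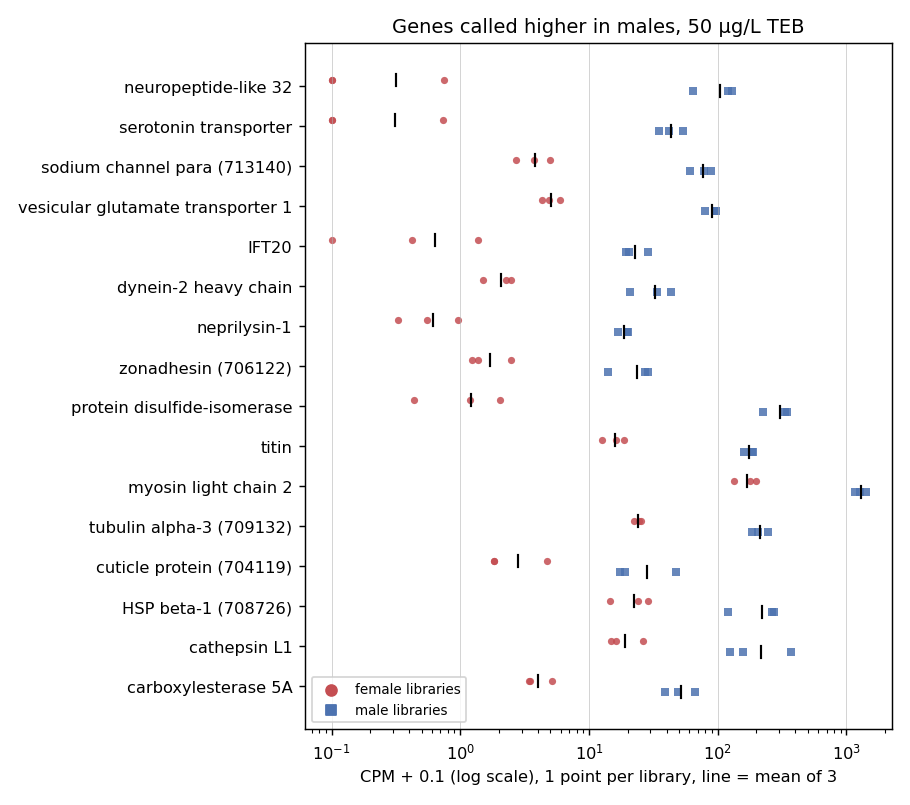
CPM (log scale, 0.1 added) of 16 genes called higher in males at 50 µg/L TEB, 1 point per library (3 female circles, 3 male squares) with the mean as a line. The sexes do not overlap for any gene shown, and the male libraries of cathepsin L1-like range from 124 to 369 CPM.

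In the list of muscle contraction 10 of 10 tested members were higher in males, where 37.0% of all named genes tested were. Besides myosins and titins, the list includes genes named actin-5C-like, a name not specific to muscle. Their log2 fold changes had a narrow range of -2.03 to -3.48 and a median of -2.69. Myosin regulatory light chain 2-like (LOC111708305) had 1412, 1285 and 1171 CPM in males and 178, 133 and 199 in females (-2.92). Titin-like (LOC111697095), the spring of the sarcomere, had 159, 187 and 183 against 16.2, 18.5 and 12.5 (-3.48). Summed over the list, males had 2786 to 3278 CPM and females 400.2 to 503. Tubulins were divided, with 6 alpha chains higher in males (-2.46 to -3.30) and 3 genes higher in females, the gamma chain of centrosomes (LOC111708829, 2.81) and 2 alpha chains (2.98 and 2.38). The alpha chain at 2.98 (LOC111703978) was scarce, with 2.68, 1.63 and 3.50 CPM in females and 5 counts in all male libraries. Its log2 fold change was 0.80 in controls and 1.02 at 0.5 µg/L, and it was called in neither. Actins and alpha tubulins are families of near-identical genes, and no source used here says how reads that fit several copies were counted, so the values of single copies are uncertain.

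In the list of cuticle and chitin 5 of 7 members were higher in males, and libraries of one sex were often far apart. Cuticle protein 16.5-like LOC111704119 had 19.0, 17.4 and 47.5 CPM in males and 1.71, 1.73 and 4.63 in females (-3.41 ± 0.53). LOC111708925 of the same name had 25.4, 27.2 and 41.1 CPM in males but 29.0 in female replicate 1 beside 1.36 and 2.60 in the others, and was not called by edgeR (-1.52 ± 1.25, adjusted p = 0.30). Without female replicate 1 it was called, at -3.95. LOC111702984 was called (-2.04, adjusted p = 0.011) although its groups overlapped, and it was not called without male replicate 3 (-1.50). Cuticle protein 7-like LOC111697606 was called (-3.18, adjusted p = 0.018), but not without female replicate 3 (-3.08) or with a replicate block (-3.26). Endochitinase A-like (LOC111697179), of the enzymes that cut chitin, was higher in females, with 190, 188 and 205 CPM against 39.2, 40.6 and 38.7 (2.30).

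In the list of ecdysone, on whose receptor TEB acts, and methyl farnesoate, the 5 members were called in both directions. The 3 genes named broad-complex core protein, a transcription factor switched on early by the moulting hormone, were higher in females (2.88, 2.86 and 2.51). The most abundant, LOC111709681, had 597, 463 and 573 CPM in females and 98.4, 96.7 and 91.8 in males. Ecdysone-induced protein 74EF-like (LOC111704069), another early gene of the ecdysone pathway, was higher in males, with 24.9, 33.0 and 41.4 CPM against 5.89, 7.72 and 3.73 (-2.51). Methyl farnesoate epoxidase-like (LOC111717477), named after the insect enzyme that turns methyl farnesoate into juvenile hormone, had 30.6, 25.5 and 35.3 CPM in males and 4.39, 5.08 and 3.73 in females (-2.79). The 2 genes named transformer-2 homolog beta, after a splicing factor of sex determination in the fly, were higher in females by 2.88 and 1.63.

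Heat shock genes were called in both directions. Of 14 members 8 were higher in males and 5 in females. On the male side, 5 genes named heat shock 70 kDa protein 1-like had log2 fold changes from -2.43 to -2.97, and 2 small heat shock proteins had -2.47 and -3.30. Copies of heat shock 70 kDa genes are alike in sequence, and single values are uncertain for them too. Males were uneven here, as LOC111708726 (heat shock protein beta-1-like) had 274 and 263 CPM in male replicates 1 and 2 but 120 in replicate 3, beside 23.8, 14.5 and 28.5 in females. On the female side were heat shock 70 kDa protein-like LOC111711631 (262, 237 and 231 CPM against 6.57, 10.4 and 7.29, 4.94) and 3 co-chaperones besides dnaJ 49-like. Heat shock protein 83-like, named after the Hsp90 of the fly, was not called (0.62, adjusted p = 0.15).

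Genes of detoxification and digestion were mostly higher in males. Of 12 detoxification genes 10 were called in that direction, beside 37.0% of all named genes tested. Glutathione S-transferase-like (LOC111714366) had 1081, 1034 and 1547 CPM in males and 186, 215 and 203 in females (-2.60), carboxylesterase 5A-like had -3.70, and the cytochromes P450 called had -2.19 to -3.40. Esterase FE4-like was higher in females (3.66), and cytochrome P450 6j1-like (LOC111709431) was not called, with 15.6, 18.8 and 16.8 CPM in males and 18.2, 17.9 and 9.71 in females. Of 9 digestive genes tested 8 were higher in males, with a median of -3.05. Male replicate 3 stood above the other male libraries here, with 369 CPM of cathepsin L1-like (LOC111697677) beside 157 and 124, and females at 16.0, 26.2 and 14.7. Its summed level over the list was 787 CPM, against 350 and 441 in the other males and 46.6 to 70.0 in females.

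The named genes with the largest bias to males, by the same rule as in females, were neuropeptide-like protein 32, protein disulfide-isomerase-like (LOC111708797, -8.04), glutaconyl-CoA decarboxylase subunit gamma-like (LOC111695396, -7.83), pinin-like (LOC111703484, -6.18), protein CDV3 homolog (-4.74), ceramide synthase 6-like (-4.62), zinc finger protein 853-like (-4.62) and tetraspanin-3-like (-4.49). Protein disulfide-isomerase, the name of an enzyme that folds secreted proteins, had 226, 335 and 345 CPM in males and 1.93, 1.09 and 0.34 in females. Pinin-like had 161, 264 and 220 against 2.68, 3.27 and 2.82. The most abundant genes higher in males carried no name in the lists of the study. LOC111712816 had 10490.5, 9410.5 and 9214 CPM in males and 4.61, 0.09 and 0 in females (-12.62), and LOC111711316 had 9811, 8591 and 9540.2 in males and 1079, 1139.7 and 1049 in females (-3.10). The first was nearly absent from females, the second abundant in both sexes.

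The same genes were then read in the libraries of the other concentrations, none of which took part in the calls above. Among genes called higher in females at 50 µg/L, 99.7% had the same direction in controls and 99.8% at 0.5 µg/L, and among those called higher in males 98.8% and 99.6% had. Fewer were also called there in that direction. Of those higher in females, 1187 of 4758 genes tested in controls were called, and 3328 of 4754 at 0.5 µg/L. Of those higher in males, 4949 of 6583 and 5969 of 6501 were. Called on their own libraries, 6600 of 16799 genes (39.3%) differed between the sexes in controls and 10328 of 16401 (63.0%) at 0.5 µg/L. Genes called higher in females had a median log2 fold change of 1.83 at 50 µg/L, 0.97 in controls and 1.29 at 0.5 µg/L. Genes called higher in males had -3.04 and -2.07 at 50 µg/L and in controls, and -3.04 and -2.59 at 50 and 0.5 µg/L, over the genes tested in both. A larger median at the concentration where the genes were called is built into that choice, so these values are a description and not a comparison of concentrations.

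Genes named for their extreme fold change at 50 µg/L had lower ones elsewhere, which the choice in part fixes. Prisilkin-39-like had a log2 fold change of 11.90 at 50 µg/L, 1.83 in controls and 2.28 at 0.5 µg/L, dnaJ 49-like had 10.16, 2.05 and 2.29, and histone H2A.v2-like 7.17, 1.57 and 2.47. Male libraries of the other concentrations were far apart for such genes. In male controls prisilkin-39-like had 0.15 CPM in replicate 1 but 693 and 933 in replicates 2 and 3, and at 0.5 µg/L it had 1.35 in replicate 1 and 522 and 499.6 in the others. LSM14 homolog B-like had 107 CPM in male control replicate 1 and 1109 and 1696 in replicates 2 and 3. Vitellogenin-like had 1.38, 29.8 and 42.9 CPM in the male controls.

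The pattern was shared across the set. Over 166 genes with a log2 fold change of 5 or more and a mean of at least 50 CPM at 50 µg/L, the median level in each of the 3 male libraries at 50 µg/L was 0.22 to 0.27% of the female mean. It was 0.25% in male control replicate 1 and 0.39% in male 0.5 µg/L replicate 1, but 33.7 and 45.6% in male control replicates 2 and 3 and 22.4 and 22.1% in male 0.5 µg/L replicates 2 and 3. The low values at 50 µg/L follow from the choice of the genes, which were taken for their fold change there, and are given only as the level beside which the other 6 male libraries can be read. Over 309 genes far higher in males, the 9 female libraries had medians of 0 to 0.52% of the male mean, with the highest in female replicate 1 at 50 µg/L.

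**Figure D5:**
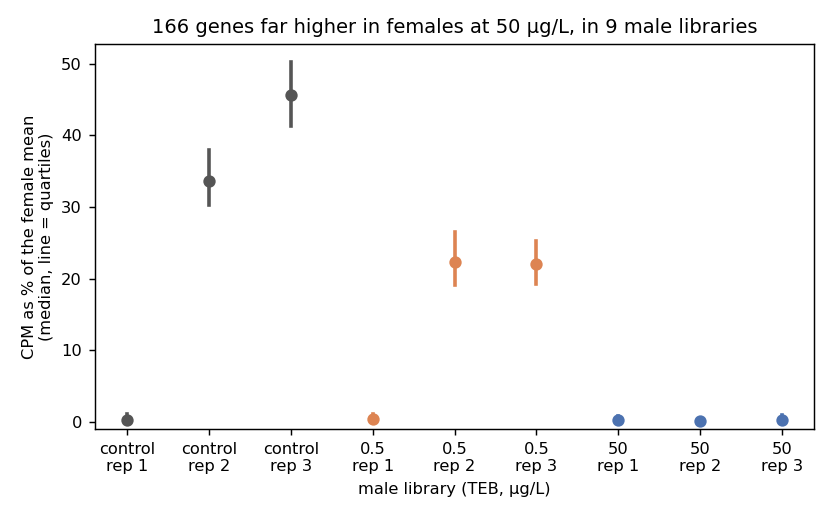
Level of 166 genes far higher in females at 50 µg/L TEB in each of the 9 male libraries, as a percentage of the mean of the females at the same concentration (points are medians over genes, lines the quartiles). Control and 0.5 µg/L replicates 2 and 3 lie between 22.1 and 45.6%, and the other 5 libraries below 0.4%.

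The sex difference was then read over male replicate 1 alone, an alternative chosen after seeing the data. On the scale of log2(mean CPM + 1), the 269 genes called with a log2 fold change of 5 or more in females had a median ratio of 5.44 at 50 µg/L over the 3 males. The median was 5.38 over male replicate 1 in controls and 5.37 over male replicate 1 at 0.5 µg/L, against 1.18 and 1.88 over replicates 2 and 3. Over all genes called higher in females the medians were 1.68 at 50 µg/L, 1.69 with control replicate 1 and 1.70 with 0.5 µg/L replicate 1. These ratios rest on 1 male library each and have no test.

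Whether the sex difference itself changed with TEB was tested on all 18 libraries. Compared with controls, 4 of 18110 genes (0.0221%) had a different sex difference by the quasi-likelihood test, with 4916 at an unadjusted p under 0.05, and DESeq2 called 1904. Compared with 0.5 µg/L, no gene was called by the quasi-likelihood test, with 2165 at an unadjusted p under 0.05, and DESeq2 called 134. These counts changed with single control libraries. Without male control replicate 1, 4353 genes differed from controls, and without female control replicate 2, 1206, and 6 of the 12 fits without one library gave no call. Without male control replicates 2 and 3 together none was called and 1929 were at an unadjusted p under 0.05, but this fit has 1 male control library, assumed to vary like the other groups, and says little. Male control replicates 2 and 3 were those with the high levels of female genes given above, and their part in these counts was not tested.

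Neuropeptide-like protein 32, picked here after its values were seen, was a male gene with levels apart between concentrations. Males had 129, 121 and 64.2 CPM at 50 µg/L, 11.5, 14.1 and 7.70 in controls and 34.97, 12.9 and 9.59 at 0.5 µg/L, while no female library of the other concentrations held a count. The lowest male library at 50 µg/L was above the highest of the others. The part of flow cell in this difference was not tested.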

How the data were processed

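RNA of entire adults was sequenced in 18 libraries, of which the 6 at a nominal 50 µg/L of TEB were compared. Per the methods of the authors, single-end reads went through Trimmomatic, STAR (assembly Eaff_2.0) and featureCounts, whose versions are not given in the sources used here, and the authors deposited raw counts per gene (23728 genes, each of 18 columns matched to 1 library by its label). No source used here states the strand setting or the handling of reads with several matches. Depth limits genes of few counts and ran from 3882407 to 9829482 counts per library. No replicates were copies of each other (chi-square per degree of freedom of at least 5.79 between replicates at 50 µg/L).

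The model was edgeR 4.0.16 under R 4.3.3 (default filter on low counts, TMM factors, robust quasi-likelihood test, Benjamini-Hochberg adjustment over all genes tested) on these 6 libraries, and differences between sex differences on all 18. A gene was called at an adjusted p of 0.05 or less and an absolute log2 fold change of 1 or more. The fits were tested on simulated data in which few genes changed, in both directions alike. Most genes were called in the real data, so this test cannot speak for the scaling used here. Alternatives were DESeq2 1.42.0, the likelihood ratio test, glmTreat, other scalings, filters, thresholds, a replicate block and leaving out each library. Names and lists came from the supplementary gene lists of the study by patterns in the name, with 16 stray matches removed. Genes were named by rule: in each direction the 8 named genes with the largest fold change at 50 CPM or more and no overlap, the 5 most abundant with a log2 fold change of 2 or more (of those without a describing name at most 2 in each direction are printed), up to 4 per list, the genes of reproduction that the study names, and pairs of one name called in opposite directions. Members, lists and rules were chosen with earlier results of these data known. Intervals and floors of 3 counts cover counting error only. The fold changes and p-values that the authors list were not used.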

Additional observations from a re-analysis of the deposited data

Results flagged for a closer look

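Of the 18110 genes tested on all 18 libraries, 4 had a sex difference at 50 µg/L that differed from that in controls, by a test of the difference itself (quasi-likelihood test of edgeR). CPM here are not TMM scaled. Sulfoquinovose 1-dehydrogenase-like (LOC111714714) had 155, 169 and 286 CPM in males and 40.1, 62.5 and 57.5 in females at 50 µg/L, but 30.7, 41.3 and 28.4 in male controls and 42.8, 44.6 and 40.2 in female controls, a log2 difference of -2.37 ± 0.38 (SE, adjusted p = 0.029 by edgeR). At 0.5 µg/L males had 129, 74.6 and 69.4 CPM and females 51.2, 38.4 and 48.8. The sexes overlapped in controls and were apart at both concentrations of TEB. The part of TEB and of the flow cell in this was not tested. The uncharacterized LOC111701273 was higher in males in both conditions, with a log2 difference of -1.69 ± 0.24 (adjusted p = 0.017 by edgeR). Females had 607, 629.7 and 579.7 CPM at 50 µg/L, 953, 920.2 and 653 at 0.5 µg/L and 1712, 1162 and 1470.2 in controls. The value of 653 is that of female replicate 3, the only library at 0.5 µg/L from the flow cell of the 50 µg/L libraries.

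Transcriptional regulator ATRX-like (LOC111702385) had a log2 difference of 2.64 ± 0.43 (adjusted p = 0.029), with 4.98, 4.89 and 3.79 CPM in males at 50 µg/L, 13.1, 23.7 and 23.9 at 0.5 µg/L and 12.6, 36.6 and 37.8 in male controls. The uncharacterized LOC111716643 had 7.65 ± 1.10 (adjusted p = 0.023), with no count in males at 50 µg/L, 1.90, 2.01 and 3.54 CPM in male controls and 0.43, 0.49 and 0.23 in the 0.5 µg/L males, and this fitted value rests on a group at 0 and is no bound. Females had 79.1 to 87.6 CPM of ATRX-like at 50 µg/L and 67.8 to 95.2 in controls. Male control replicates 2 and 3 also held far more RNA of female genes than replicate 1, and without both no gene was called by edgeR, with 1929 at an unadjusted p under 0.05. That fit has 1 male control library, assumed to vary like the other groups, and 6 of the 12 fits without a single library also gave no call. The part of these libraries, and of the flow cell, in the 4 differences was not tested.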

How the results depend on the processing

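Counts of called genes stayed within 1.5 times of those reported under every alternative scaling and tool, with 2 exceptions. With an absolute log2 fold change of 2 or more, 1920 genes were higher in females, and with at least 10 CPM in 3 libraries, 3751 were higher in males, as fewer genes were tested. The stricter filter also left no gene higher in males in the lists of germ line RNA regulators, axoneme and mucins (0 in each) and 12 in the nerve list, and the higher fold threshold left 1 of the 2 sex determination genes. Without one library in turn, 4816 to 5095 genes were higher in females and 6760 to 7507 in males. The replicate numbers gave no sign of pairing (correlations of deviations of 0.02, -0.11 and -0.04, beside 0.19 for male replicate 3 with female replicate 2). With 3 libraries per sex this cannot exclude pairing. Copepods were exposed in triplicate devices, and no source used here states whether libraries of the same number shared a device. With replicate as a block 4732 and 6804 genes were called, and of the genes described the calls of LOC111697606 and LOC111709548 were lost. Of the named genes and list members, cytochrome P450 6j1-like (LOC111709431), not called, changed sign (0.0824 with DESeq2, 0.13 with library size only, 0.17 after recentring on the median, and -0.2358 to 0.14 without one library in turn). No other of these genes changed direction under an alternative.

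The count of genes whose sex difference differed from controls ranged from 0 to 4353 without one library in turn (4353 without male control replicate 1, 1206 without female control replicate 2), was 1904 with DESeq2 and 0 without male control replicates 2 and 3 together, which leaves 1 male control. Against 0.5 µg/L it ranged from 0 to 3, and was 134 with DESeq2. Recentring and the removal of male controls were chosen after seeing the data. Depth limits genes of few counts, such as those at 0 in one sex.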
